A study of Homo sapiens with 6 samples.

Results

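The complement system is a cascade of plasma and tissue proteins that marks surfaces for clearance and lysis, and 9 of its genes are described here in carcinoma spheroids: the components C3, CFB, CFD, C1R and C1S and the regulators CFI, CD46, CD55 and CD59. They were taken by gene symbol, and all 9 are among the 38167 genes of the count table. Cal27, an established human line derived from a tongue squamous cell carcinoma, formed spheroids within Matrigel, which is extracted from basement membrane. The soft group had 3 mg/mL Matrigel and the stiff group 12 mg/mL, with 3 libraries each. Spheroids were grown by liquid overlay and collected on day 14. The groups share the cell line and the culture time, and no other treatment is named. Concentration changes stiffness and the amount of matrix protein together, so their effects cannot be told apart. The comparison asks how a stiffer surrounding matrix alters expression in these spheroids.

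In the classical pathway, the proteases C1R and C1S sit in the C1 complex and start the cascade by cutting C4 and C2. In the alternative pathway, CFD cuts CFB bound to C3b, and the resulting enzyme cuts further C3, which makes the loop self-amplifying. CFI cuts C3b and C4b into inactive fragments with the help of cofactors such as CD46, CD55 speeds the decay of the enzymes that cut C3, and CD59 blocks the last step, in which a pore forms in the membrane. Liver is the main source of most of the plasma proteins, but epithelial cells make many of them, C3 and CFB among them, and carry the 3 surface regulators.

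The libraries held 30656278 to 40583044 counted fragments, and replicates correlated across genes at r = 0.988 to 0.994 on log2 CPM, counts scaled to the size of each library. Stiff replicate 2 stood apart from the other stiff libraries on the second principal component (-35 against 21.5 and 18.3), which held 10.8% of the variance. The labels call the libraries biological replicates without saying whether they came from separate cultures, so the p-values reflect only variation among these libraries. All 8 squamous epithelial markers were detected, with summed levels of 5695 to 6350 CPM in soft and 17513 to 18855 CPM in stiff. KRT5, KRT14, KRT17, TP63 and SFN rose, EPCAM (135 to 107 CPM) and CDH1 (320 to 235 CPM) fell, and DSG3 did not pass the test. Of the markers of other cell types, 5 of 8 for fibroblasts, 5 of 8 for myeloid cells, 7 of 8 for hepatocytes and 4 of 6 for endothelium averaged below 1 CPM. Of these markers, THY1, AIF1 and TYROBP had no fragment in any library, and ALB and PTPRC did not exceed 0.0832 CPM in any. The fibroblast list still summed higher in stiff (72.9 to 80.4 CPM in soft, 99.3 to 106 CPM in stiff), led by COL1A1 and by LUM, which went from 2.31 to 17.3 CPM. The hepatocyte list summed to 4.04 to 5.16 CPM in soft and 12.0 to 13.1 CPM in stiff, nearly all of it SERPINA1. The endothelial list summed to 11.0 to 14.0 CPM in soft and 3.87 to 5.07 CPM in stiff, but its genes differed in direction. CDH5 fell from 10.4 to 0.552 CPM, VWF rose from 1.58 to 3.22 CPM, and PECAM1 did not pass the test. The part of such cells in the results below was not tested.

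C3, CFB and CFI were lower in stiff than in soft Matrigel, whereas CFD, C1R, C1S, CD55 and CD59 were higher. CD46 did not pass the test. Thus 5 of 9 genes rose and 3 fell in edgeR's quasi-likelihood test at an adjusted p below 0.05, where 25.3% of 18676 tested genes rose, 23.8% fell and 49.1% changed in either direction. With log2 values of the deposited TPM, 41.3% of all calls were rises rather than 51.5%; the members gave the same 5 rises and 3 falls. For each of the 9 genes the soft libraries lay wholly above or wholly below the stiff ones, as was so for 59.9% of all tested genes. The median size of the log2 fold change was 0.84 over the 9 genes and 0.35 over all tested genes. These counts describe the genes and are not a test of the set, and the 9 were chosen with earlier results of these data known. The values for all tested genes cover every level, and none were computed for genes of like level. By mean CPM, C3, CD46, CFB, CD59, C1R and C1S ranked between 25 and 464 among tested genes. CD55, CFI and CFD ranked between 4917 and 11350. Without stiff replicate 2, again 5 rose and 3 fell. These are bulk libraries, in which fewer cells of a type and less RNA per cell cannot be told apart.

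**Figure D1:**
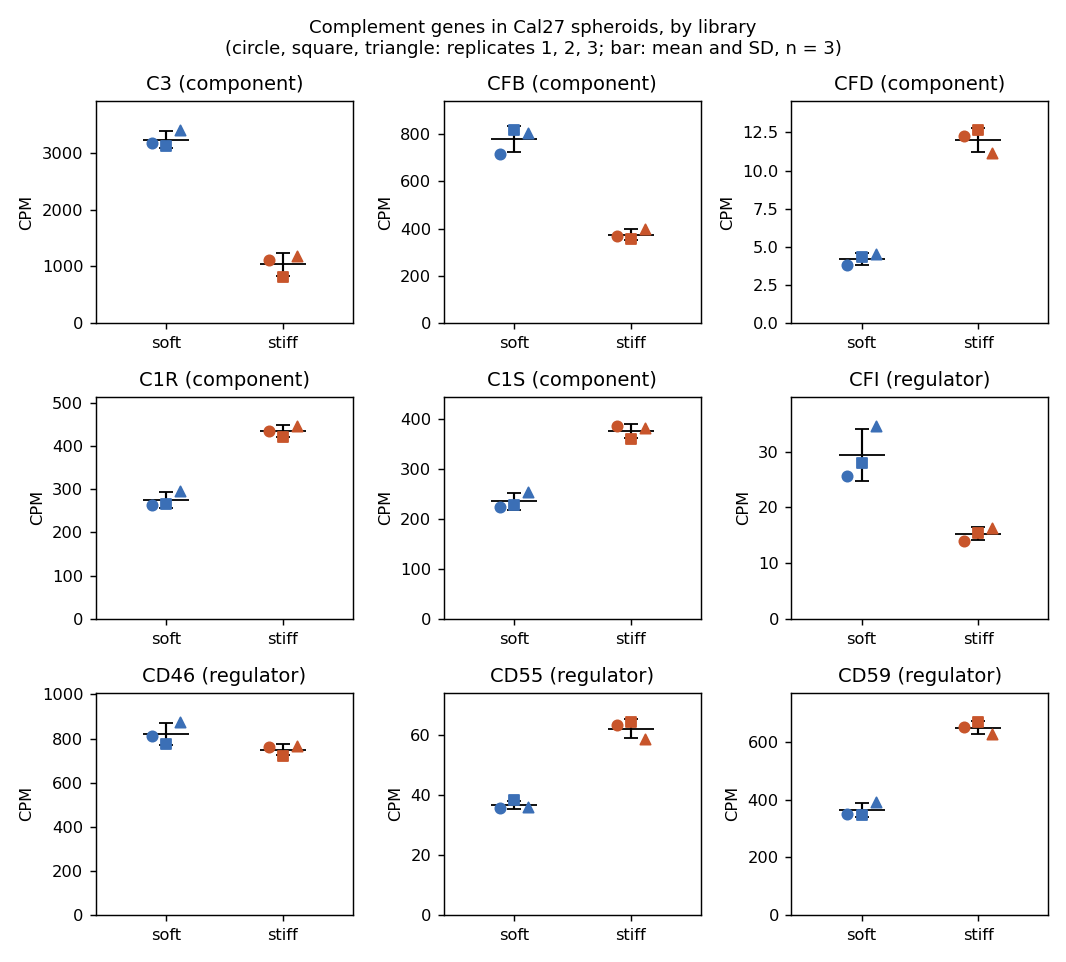
Level of each of the 9 complement genes in each library, in CPM on a linear axis from 0 (blue soft, orange stiff; symbols mark replicates 1 to 3; bars give the mean and SD, n = 3). The soft and stiff libraries do not overlap in any panel; C3 drops from 3239 to 1036 CPM and CFD climbs from 4.21 to 12.0 CPM.

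C3, the protein on which all activation pathways converge, had the highest level of the 9 per transcript length in soft. It was at 3175, 3130 and 3412 CPM in soft replicates 1, 2 and 3 and at 1115, 810 and 1181 CPM in stiff replicates 1, 2 and 3. Every stiff library was below every soft library, and stiff replicate 2 was the lowest. C3 (Entrez 718, GRCh38.p14 chromosome 19, 6677704 to 6720650, the build of all positions here) fell 3.13-fold, a log2 fold change of -1.65 ± 0.13 (SE; adjusted p = 4.87e-06, edgeR). Without stiff replicate 2 the log2 fold change was -1.50. In the ranking of all tested genes from the largest fall upwards, C3 was at place 383.

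CFB encodes factor B, the zymogen that supplies the protease of the alternative pathway. It was at 717, 817 and 805 CPM in soft and at 367, 355 and 400.0 CPM in stiff, so the groups were well separated and each was tight. CFB (Entrez 629, chromosome 6, 31946095 to 31952084) fell 2.08-fold, with a log2 fold change of -1.06 ± 0.08 (SE; adjusted p = 3.73e-06, edgeR). In GENCODE release 29 another gene model, AL645922.1, covers 45% of CFB's exons on the same strand; it is not a row of the count table.

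CFD encodes factor D, the protease that activates factor B, and had the lowest level of the 9 per transcript length in soft. It was at 3.78, 4.34 and 4.50 CPM in soft and at 12.3, 12.7 and 11.1 CPM in stiff, from 140 to 157 fragments per soft library and 402 to 452 per stiff library. All 3 stiff values were above all soft values. CFD (Entrez 1675, chromosome 19, 859664 to 863641) rose 2.87-fold, with a log2 fold change of 1.52 ± 0.12 (SE; adjusted p = 5.52e-06, edgeR). It thus moved opposite to its substrate CFB and to C3.

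The C1 proteases rose together. C1R, the protease that activates C1S, was at 262, 266 and 296 CPM in soft and at 435, 420 and 447 CPM in stiff. C1S, which cuts C4 and C2, was at 224, 227 and 253 CPM in soft and at 386, 360 and 381 CPM in stiff. For both genes the lowest stiff library was well above the highest soft library. C1R rose 1.58-fold (log2 0.66 ± 0.07 SE, adjusted p = 4.55e-05, edgeR) and C1S rose 1.6-fold (log2 0.68 ± 0.07 SE, adjusted p = 4.28e-05, edgeR). The genes are neighbours on chromosome 12, C1S at 7060718 to 7071032 and C1R at 7080219 to 7092445, 9186 bases apart. The adjacent paralog C1RL covers 11.4% of C1R's exons in GENCODE release 29, so C1R's counts are uncertain to that extent; C1RL itself was at 111 and 106 CPM (adjusted p = 0.438, edgeR).

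Among the regulators, CFI encodes factor I, the protease that inactivates C3b. It was at 25.6, 28.0 and 34.7 CPM in soft and at 14.0, 15.4 and 16.4 CPM in stiff. Soft replicate 3 was the highest, and no stiff library reached the lowest soft value. CFI (Entrez 3426, chromosome 4, 109730982 to 109801999) fell 1.92-fold, with a log2 fold change of -0.94 ± 0.12 (SE; adjusted p = 0.000141, edgeR). A GENCODE gene on the same strand, AC126283.2, covers 32% of its exons and is not a row of the count table.

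The surface regulators differed among themselves. CD59, the inhibitor of the membrane pore, was at 352, 348 and 392 CPM in soft and at 652, 672 and 629 CPM in stiff. It rose 1.79-fold (chromosome 11, 33703010 to 33736479; log2 0.84 ± 0.07 SE, adjusted p = 9.48e-06, edgeR). A GENCODE gene on the same strand, AL049629.2, covers 6.07% of CD59's exons and is not a row of the count table. CD55, the decay-accelerating factor, was at 35.8, 38.3 and 35.9 CPM in soft and at 63.3, 64.5 and 58.6 CPM in stiff. It rose 1.69-fold (chromosome 1, 207321678 to 207360966; log2 0.76 ± 0.07 SE, adjusted p = 2.16e-05, edgeR). Both genes had all stiff libraries above all soft libraries.

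CD46, a membrane cofactor of factor I, did not follow them. It was at 811, 777 and 877 CPM in soft and at 763, 719 and 766 CPM in stiff, so the lowest soft and highest stiff libraries lay close together. Its log2 fold change was -0.13, with a 95% interval of -0.29 to 0.02 (chromosome 1, 207752038 to 207795516; adjusted p = 0.141, edgeR). With scaling by library size alone the log2 fold change was -0.19 and passed the test (adjusted p = 0.0425, edgeR; 0.0425 to 0.375 over all alternatives).

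**Figure D2:**
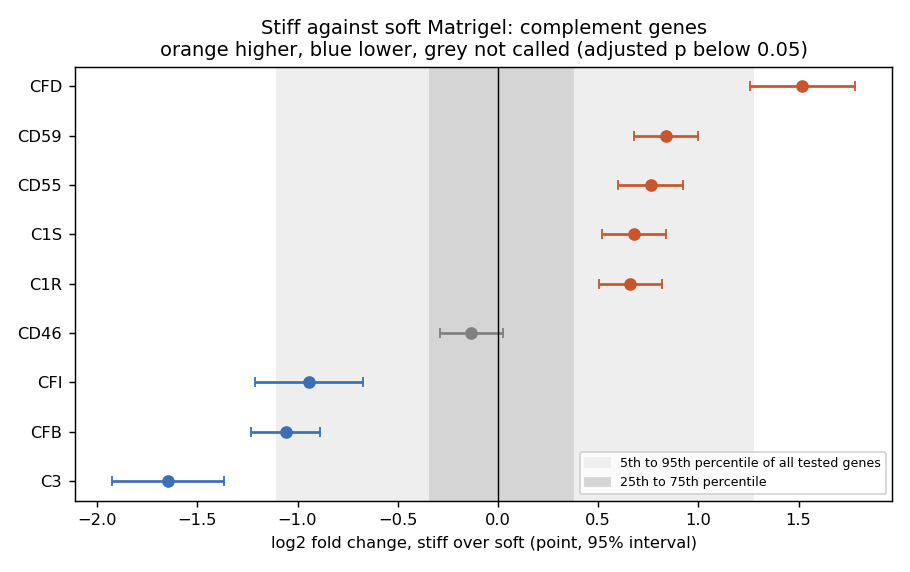
Log2 fold change of stiff over soft for each gene (points) with its 95% interval (bars), orange for higher, blue for lower and grey for not called; grey bands give the 5th to 95th and 25th to 75th percentiles of all 18676 tested genes. C3 at -1.65 and CFD at 1.52 lie outside the wider band, which runs from -1.10 to 1.27, and the interval of CD46 alone crosses 0.

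RefSeq promoter sequences (GRCh38.p14) were held for 7 of the 9 genes, as 12 windows of 250 bases before a start; C3 and C1S had no entry. Interferons and inflammatory cytokines are known inducers of complement genes, so the windows were searched on both strands for GAAANNGAA, the core of the interferon-stimulated response element, for TTCNNNGAA, the GAS element bound by STAT factors, which reads alike on both strands, and for the NF-kB consensus. Of 35114 RefSeq windows of this length, 6.88% held the first, 6.57% the second and 5.21% the third. The 3 windows below, chosen because they hold a match, are given 5′ to 3′ on the gene's strand with matches in capitals. They lie at chr6:31945845-31946094 on the plus strand, chr12:7091894-7092143 on the minus strand (the inner of 2 C1R starts) and chr11:33736480-33736729 on the minus strand (the outermost of 4 CD59 starts).
CFB: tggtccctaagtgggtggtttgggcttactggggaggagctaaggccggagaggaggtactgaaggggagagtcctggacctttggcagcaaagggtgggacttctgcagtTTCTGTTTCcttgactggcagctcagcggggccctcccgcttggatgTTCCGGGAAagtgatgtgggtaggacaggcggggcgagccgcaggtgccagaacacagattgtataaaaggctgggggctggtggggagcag
C1R: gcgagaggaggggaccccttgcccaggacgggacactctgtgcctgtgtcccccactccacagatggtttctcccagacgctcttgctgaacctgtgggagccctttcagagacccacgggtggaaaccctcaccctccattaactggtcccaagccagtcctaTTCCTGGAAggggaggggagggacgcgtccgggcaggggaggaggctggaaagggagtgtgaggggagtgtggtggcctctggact
CD59: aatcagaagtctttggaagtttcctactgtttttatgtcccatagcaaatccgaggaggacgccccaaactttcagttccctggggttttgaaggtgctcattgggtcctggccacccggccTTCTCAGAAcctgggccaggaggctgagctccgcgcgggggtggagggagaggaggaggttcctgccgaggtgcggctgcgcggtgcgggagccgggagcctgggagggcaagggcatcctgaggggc

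In the CFB window the interferon element lies 139 to 131 bases before the start, on the minus strand, and the GAS element 92 to 84 bases before it. The GAS match of C1R lies 86 to 78 bases before its start and that of CD59 128 to 120 bases before its start. The next CD59 start, which overlaps this window, holds the same match. No window of CFD, CFI, CD46 or CD55 held any of the 3 motifs, nor did the outer C1R window or the remaining CD59 windows. None of the 12 windows matched the NF-kB consensus. A match is a description of the sequence and no measure of binding.

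To compare levels between genes, CPM were divided by the length of 1 lead transcript per gene. The genes have from 1 (C3 and CFB) to 18 (CFI) RefSeq transcripts, so the order depends on the transcript taken. CD59, for example, has 8 and was divided by 7631 bases. The SDs cover variation among libraries only. On this scale of CPM per kilobase, C3 stood first in soft at 615 ± 28.8 (SD, n = 3). CFB (272 ± 19.1) and CD46 (251 ± 15.5) followed, with overlapping ranges. C1R came next at 109.6 ± 7.38, then C1S at 78.9 ± 5.50 and CD59 at 47.7 ± 3.20. CFI (13.6 ± 2.18) and CD55 (12.7 ± 0.505) overlapped, and CFD was last at 3.50 ± 0.316.

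The order was different in stiff. There CD46 (229 ± 8.05 CPM per kilobase, SD, n = 3), C3 (197 ± 37.6) and C1R (173 ± 5.46) led, and C3 overlapped with both. CFB (131 ± 8.08) and C1S (126 ± 4.68) overlapped with each other. CD59 (85.3 ± 2.86), CD55 (21.5 ± 1.07), CFD (10.0 ± 0.658) and CFI (7.07 ± 0.541) followed without overlap. Per unit length, CFB was thus above C1R in every soft library and below it in every stiff library.

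Ratios of 2 genes within a library do not depend on how libraries are scaled. Of 10 such ratios, the largest shift was that of C3 over CD59, which lay between 8.70 and 9.01 in soft and was 1.71, 1.21 and 1.88 in stiff. C3 over C1R was 12.1, 11.8 and 11.5 in soft and 2.56, 1.93 and 2.64 in stiff. C3 also fell more than CFB: their ratio was 4.43, 3.83 and 4.24 in soft and 3.04, 2.28 and 2.95 in stiff, a log2 difference of -0.60. The groups did not overlap in these ratios, each with an exact two-sided permutation p = 0.1 (adjusted p = 0.143 over the 10 ratios), the smallest that 3 against 3 libraries allow.

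Other pairs kept closer proportions. C1R over C1S was 1.17, 1.17 and 1.17 in soft and 1.13, 1.17 and 1.17 in stiff, a log2 difference of -0.02 with overlapping groups (exact permutation p = 0.3). CFB over CFI lay between 23.2 and 29.2 in soft and between 23.1 and 26.2 in stiff (exact permutation p = 0.3). CD59 over CD55 lay between 9.08 and 10.9 in soft and between 10.3 and 10.7 in stiff (exact permutation p = 0.5). CD59 over CD46, in contrast, was 0.434, 0.448 and 0.447 in soft and 0.854, 0.935 and 0.821 in stiff, without overlap (exact permutation p = 0.1).

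**Figure D3:**
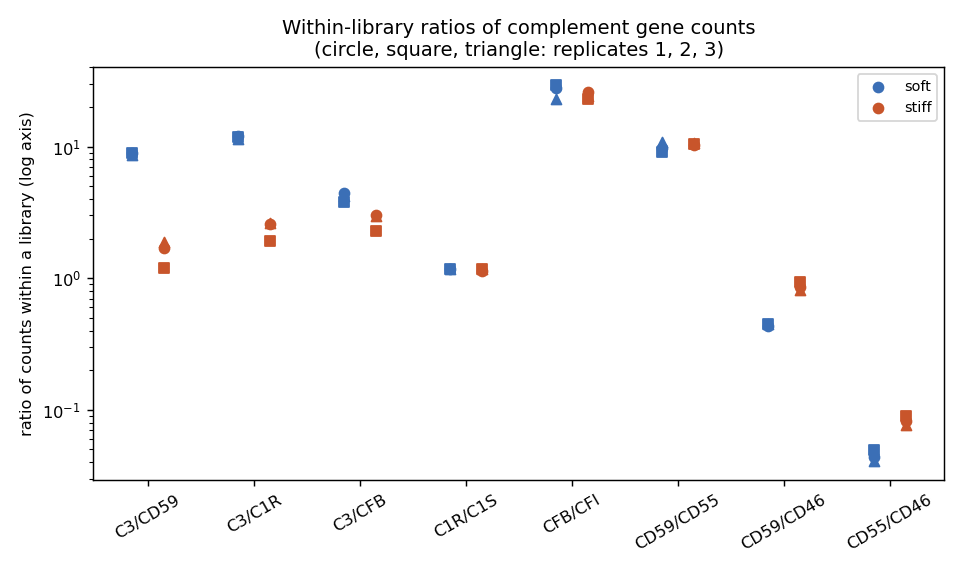
Ratio of the counts of 2 complement genes within each library, on a log axis (blue soft, orange stiff; symbols mark replicates 1 to 3). C3 over CD59 drops from 9.01 to 1.71 in the first replicates, while C1R over C1S, CFB over CFI and CD59 over CD55 overlap between the groups.

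A list of 13 receptors and transcription factors through which complement genes are known to be induced was read beside them. Of these, 4 were higher and 6 lower in stiff, against 25.3% and 23.8% of all tested genes, with a median log2 fold change of -0.24. IRF1, an interferon-induced transcription factor, was at 184, 192 and 186 CPM in soft and at 98.2, 115 and 98.4 CPM in stiff, a 1.80-fold fall (adjusted p = 1.63e-05, edgeR). The interferon gamma receptor chain IFNGR1 fell 1.31-fold (adjusted p = 0.000779, edgeR). The cytokine receptors IL6ST and OSMR fell 1.48-fold and 1.36-fold, and NFKB1 fell 1.22-fold. IFNGR2, the partner chain of IFNGR1, rose 1.32-fold, RELA 1.23-fold, TNFRSF1A 1.21-fold and CEBPB 1.16-fold. STAT3, CEBPD and IL1R1 did not pass (adjusted p = 0.861, 0.403 and 0.0573, edgeR). Whether these genes have a part in the levels of the complement genes was not tested.

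The rest of the pathway was read from a list of 48 further complement genes, 22 of which had enough counts to be tested. Of these 22, 6 rose and 7 fell in stiff, where 25.3% of all tested genes rose and 23.8% fell. Their median log2 fold change was -0.11, and the counts are not a test of the list. With limma on log2(TPM + 1), 3 of the listed genes that passed its own filter rose and 6 fell. In that fit 2880 of all 15770 tested genes rose and 4088 fell. Among the 11 of the 22 that averaged 5 CPM or more, 3 rose and 6 fell in edgeR. The 25.3% and 23.8% cover tested genes of every level, and no share for genes at 5 CPM or more was computed. The 26 that were not tested include C1QA, C1QB and C1QC, the recognition subunits that carry C1R and C1S, and CFP, which stabilises the alternative pathway enzyme.

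In the steps after C1, C4A and C4B, near-identical genes for the protein that C1S cuts, were at 7.69 ± 1.00 and 6.74 ± 0.930 CPM in soft and at 4.46 ± 0.568 and 4.19 ± 0.291 CPM in stiff (SD, n = 3). Both fell (adjusted p = 0.00163 and 0.00297, edgeR), though the split of reads between the copies is uncertain. C2, the other C1S substrate, was at 9.94 and 8.90 CPM (adjusted p = 0.291, edgeR). C1S thus rose where C4A and C4B fell and C2 did not pass the test.

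Among secreted regulators, SERPING1, the C1 inhibitor that inactivates C1R and C1S, was at 9.19, 8.29 and 13.6 CPM in soft and at 18.8, 17.1 and 19.5 CPM in stiff. SERPING1 rose 1.79-fold (adjusted p = 0.00207, edgeR), with no overlap. CLU, which binds the assembling membrane pore, rose 1.53-fold to 72.3 ± 7.06 CPM (SD, n = 3). CFHR3 rose 1.57-fold to 7.09 CPM and shares long stretches with its relatives, so its counts are uncertain.

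Of the receptors and surface proteins above 5 CPM, all 3 fell. SUSD4, a membrane protein that inhibits complement enzymes, was at 18.6, 17.8 and 18.2 CPM in soft and at 11.0, 9.47 and 11.8 CPM in stiff, a 1.69-fold fall (adjusted p = 2.00e-04, edgeR). ITGB2, the shared chain of the leukocyte receptors for C3 fragments, fell 1.53-fold, and C1QBP, a mainly mitochondrial protein that binds C1q, fell 1.32-fold. Below 5 CPM, and named after their values were seen, ITGAM, ITGAX and CD93 rose and the terminal component C5 fell from 3.02 to 1.73 CPM. ITGAM went from 2.96 to 4.99 CPM. ITGAX (0.227 to 0.612 CPM) and CD93 (0.175 to 1.41 CPM) averaged below 1 CPM over all libraries and rest on few fragments. The myeloid marker list, which shares no gene with this set, summed to 104 to 111 CPM in soft and 132 to 146 CPM in stiff, nearly all of it CD14 and CD68. These moved in opposite directions, CD14 falling from 51.4 to 36.6 CPM and CD68 rising from 55.8 to 101 CPM. CSF1R, the only other myeloid marker with enough counts to be tested, rose from 0.799 to 2.27 CPM (adjusted p = 0.000687, edgeR). The part of myeloid cells in these changes was not tested.

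**Figure D4:**
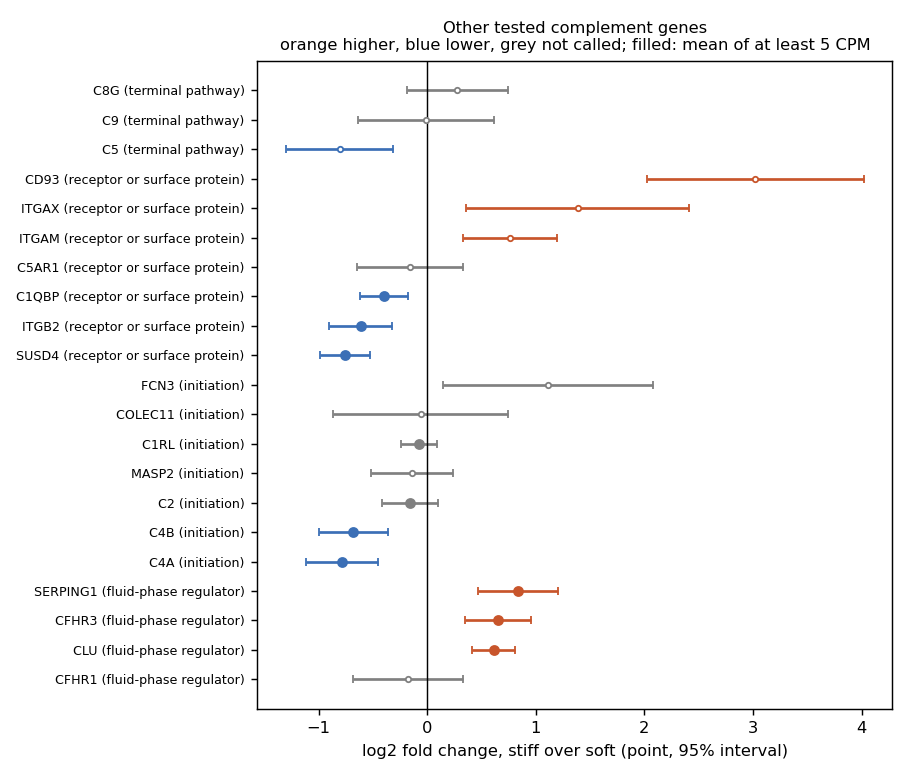
Log2 fold change of stiff over soft with its 95% interval for tested complement genes outside the 9, grouped by role, with 1 of the 22 not shown (orange higher, blue lower, grey not called; filled symbols average 5 CPM or more). SERPING1, CLU and CFHR3 lie to the right of 0, and C4A, C4B, SUSD4, ITGB2 and C1QBP to the left.

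Among 12428 other genes averaging 5 CPM or more, the closest profiles to that of C3 over the 6 libraries were those of NRIP1, ABCA1 and RPS6KA2. Their root mean square distances in centred log2 CPM were 0.062, 0.069 and 0.076. NRIP1, a nuclear receptor corepressor, went from 173 to 57.3 CPM, and ABCA1, a cholesterol exporter, from 86.8 to 27.2 CPM. Closest to CFB were WDR35, NFKBIZ and RAPGEF3, at distances of 0.047, 0.054 and 0.055. NFKBIZ, a nuclear IkB protein, went from 155 to 73.4 CPM. Mean CPM of all 6 genes were lower in stiff, which follows from their being chosen for closeness to C3 and CFB.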

How the data were processed

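Polyadenylated RNA from 6 Cal27 spheroid samples was sequenced as directional libraries, per the labels' protocols. The submitters' processing notes name hg38 and the tools STAR 2.6.1e, featureCounts 1.6.2, FastQC 0.11.7, cutadapt 1.9.1 and Trim Galore 0.4.2, while annotation and strand setting were not given in the sources used here. Deposited counts are whole fragments per gene symbol, 1 column per library, not normalized, and the authors' TPM have 1 decimal. TALAM1, antisense to MALAT1, had 92.7% to 94.3% of MALAT1's counts, so overlapping genes on either strand were treated as not told apart. The deposited TPM divide by a length that grows with the number of RefSeq transcripts: relative to a lead transcript, it was 5.26 times larger for genes with 5 transcripts than for genes with 1, and 9.09 times for genes with 10. In place of the planned TPM, and after seeing this, levels were therefore compared between genes as CPM over the lead transcript's length (GENCODE release 29, RefSeq-matched, principal where tagged, otherwise longest).

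Stiff was compared with soft by edgeR 4.0.16 in R 4.3.3 (quasi-likelihood F test, TMM factors, default filter, no covariate) on all genes, with Benjamini-Hochberg adjustment over 18676 tested genes. The SE is the log2 fold change over the square root of F. Scripts were tested on simulated data. Libraries of a condition differed by more than counting noise (chi-square over degrees of freedom, 3.39 to 33.4). The 9 genes and the other lists were chosen with earlier results of these data known. The named genes were all 9, the other complement genes averaging 5 CPM or more, the inducer list, and the 3 most alike profiles of C3 and CFB; 2 genes of these lists are counted but not reported by name here. Alternatives were DESeq2 1.42.0, other scaling, filters and dispersions, limma 3.58.1 on log2 TPM, stricter thresholds, a replicate block, and leaving out each library in turn.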

Additional observations from a re-analysis of the deposited data

How the results depend on the processing

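Over 17 alternatives each, the 9 genes gave 153 log2 fold changes, none of them in the opposite direction; 152 stayed on the same side of the threshold, and the exception was CD46 with scaling by library size only (-0.189). The lowest and highest values were -1.78 and -1.50 for C3, -1.17 and -1.02 for CFB, 1.29 and 1.57 for CFD, 0.547 and 0.710 for C1R, and 0.705 and 0.889 for CD59. Requiring at least 2-fold left 1 of the 9 genes higher and 2 lower, 2 other complement genes higher and 0 other complement genes lower, and 1419 genes higher and 1050 lower over all. The 2 other complement genes higher were ITGAX and CD93. Both are left out by a filter at a mean of 1 CPM, with which 4 other complement genes were higher rather than 6. With limma on log2(TPM + 1), on log2(TPM + 0.1) and on log2(TPM + 1) without a filter, 3 other complement genes were higher in each, and 2880, 2831 and 3138 genes were higher over all; log2(TPM + 0.1) moved the median of all genes by -0.11. With the replicate number as a block, 5 of the 9 genes were higher and 3 lower, the same counts as without it, and 5167 genes were higher over all. Same-numbered libraries deviated from their group means with correlations of 0.073, 0.216 and 0.050, which do not show that numbers mark pairs; only replicate 2 correlated best with its own number. CFD rests on the fewest fragments of the 9, 140 to 452 per library.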
